A study of Drosophila melanogaster with 8 samples.

Results

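The genes described here are 10 genes that identify glia or the blood-brain barrier of the fly: repo, alrm, wrapper, axo, nrv2, Nrx-IV, drpr, moody, Mdr65 and Indy. They were chosen by name, with earlier results of these data known, and all 10 were found among the 16727 genes of the count table and passed the filter on low counts. RNA was sequenced from whole heads of female w1118 flies aged 7 d, in 8 libraries of 15 heads each. All flies carried UAS-(G4C2)36, a transgene with 36 copies of the hexanucleotide repeat that is expanded in C9orf72-linked amyotrophic lateral sclerosis and frontotemporal dementia, together with elavGS, a neuronal driver that is active only in the presence of RU486 (mifepristone). In 4 libraries the repeat was induced by feeding 200 µM RU486 for 5 d, and the 4 uninduced libraries came from flies of the same genotype fed the ethanol vehicle for the same time. Flies given RU486 but lacking the transgene were not sequenced, so that effects of the drug and of the repeat cannot be told apart. The driver acts in neurons, whereas the genes described here are known chiefly from glia and other non-neuronal cells.

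Glia of the fly brain are divided by position and task. Astrocyte-like glia infiltrate the neuropil and clear transmitters, cortex glia wrap the cell bodies of neurons, and ensheathing glia border the neuropil and engulf debris. The surface of the brain is covered by perineurial glia, which lie under the neural lamella, a sheet of extracellular matrix, and by subperineurial glia, which are sealed to each other by septate junctions and pump out foreign compounds. The last 2 layers form the blood-brain barrier, and the septate junction is shared with epithelia elsewhere in the body. Because heads were sequenced whole, fewer glia and less RNA per glial cell cannot be told apart in any of the values below.

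Library totals ranged from 13247282 to 14962813 counts, and between 12267 and 12553 genes had at least 1 count. Levels are given as CPM, the counts per 1000000 counts of a library after TMM normalization in edgeR. Genes were called at an adjusted p under 0.05 in the quasi-likelihood test of edgeR, with adjustment over the 9905 genes tested. Of these genes, 17.7% were called higher and 18.8% lower in induced heads. The labels name the 4 libraries of a group as biological replicates. Every pair of libraries in 1 group differed by more than sampling noise, and uninduced replicate 4 stood furthest from the others of its group.

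Induction split the 10 genes. Of these, 4 were called lower (Indy, moody, Mdr65 and drpr), 4 were called higher (wrapper, axo, alrm and nrv2), and repo and Nrx-IV did not pass the test. The shares over all genes tested were 18.8% lower and 17.7% higher. The falls of the barrier genes moody and Mdr65 and of the citrate transporter gene Indy were the largest changes, to between 0.697 and 0.743 times the uninduced mean, while the 4 rises were small, to between 1.12 and 1.17 times. Uninduced and induced libraries were fully separate for 3 of the lower genes (moody, Mdr65 and Indy) and 2 of the higher genes (wrapper and nrv2). Among all genes tested, such a separation was seen upward in 18.1% and downward in 17.9%. The median log2 fold change of the 10 genes was 0.10, between extremes of -0.52 and 0.23, beside a median of 0.00 over all genes tested.

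**Figure D1:**
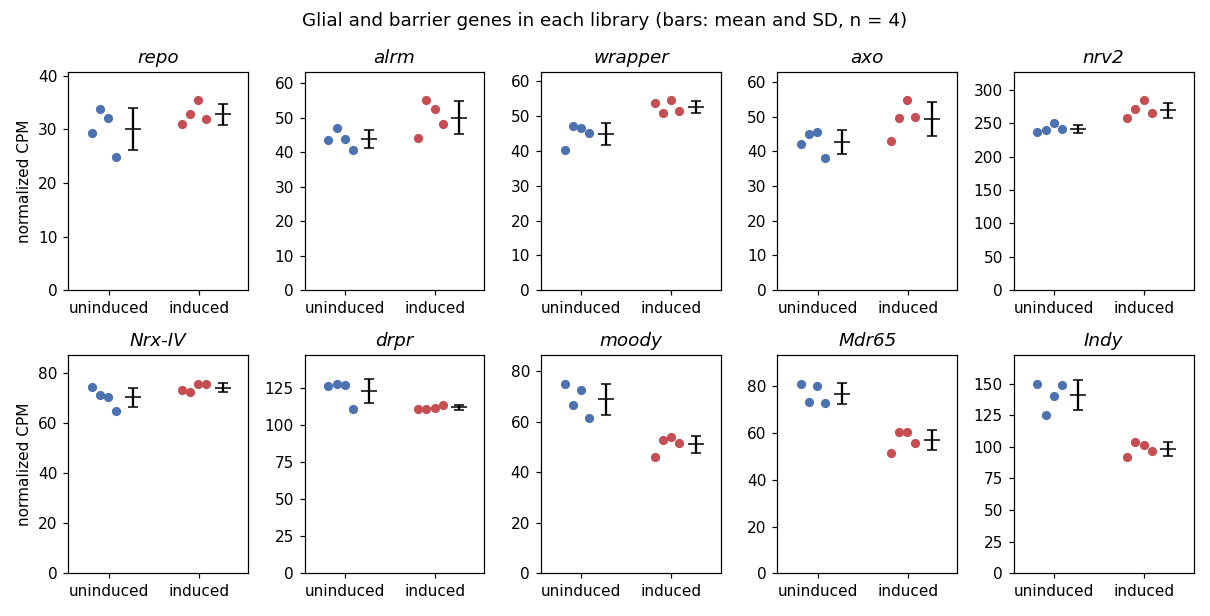
Normalized CPM of the 10 genes in each of the 8 libraries, with a panel for each gene and an axis that starts at 0. Points are libraries, in order of replicate number, and bars are the mean and SD of the 4 libraries of a group. The points of moody, Mdr65 and Indy lie lower in all induced libraries, those of wrapper and nrv2 lie higher, and the groups overlap in the other 5 panels.

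The gene repo encodes the homeodomain transcription factor that is present in nearly all glia of the fly and is the usual marker of glial identity. Its level was 29.3, 33.8, 32.2 and 24.9 CPM in uninduced replicates 1 to 4 and 31.0, 32.9, 35.4 and 31.9 CPM in induced replicates 1 to 4. The groups overlapped, and uninduced replicate 4 was the lowest of all libraries. The log2 fold change of repo was 0.13 (95% confidence interval -0.05 to 0.31, edgeR adjusted p = 0.258). This interval includes both no change and a rise as large as that of wrapper. Its exons share 183 bp with those of CG7156 on the opposite strand, and the strand setting of the counting is not given in the sources used here. In uninduced libraries CG7156 had 163 to 188 counts and repo 320 to 441, and in induced libraries CG7156 had 214 to 247 and repo 455 to 559. CG7156 was itself called higher (log2 fold change 0.21, edgeR adjusted p = 0.0382). Its part in the value of repo was not tested.

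Among the markers of a single glial class, alrm encodes a leucine-rich repeat protein used to identify astrocyte-like glia. It had 43.6, 46.9, 43.9 and 40.7 CPM in uninduced and 44.2, 55.0, 52.6 and 48.0 CPM in induced replicates 1 to 4. Only induced replicate 1 lay within the uninduced range. The mean rose from 43.8 ± 2.56 (SD, n = 4) to 50.0 ± 4.81 CPM, a log2 fold change of 0.19 (standard error 0.07, edgeR adjusted p = 0.0445). The call was lost in 8 of 15 alternatives, among them DESeq2 (adjusted p = 0.0625), and the adjusted p was highest without induced replicate 2 (0.147, log2 fold change 0.14). The exact two-sided permutation test gave p = 0.0571.

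The gene wrapper encodes an immunoglobulin superfamily protein on the surface of midline and cortex glia that wrap neurons. Its level was 40.4, 47.3, 46.7 and 45.1 CPM in uninduced and 53.7, 50.9, 54.6 and 51.4 CPM in induced replicates 1 to 4. Every induced library lay above every uninduced library. The rise from 44.9 ± 3.12 to 52.6 ± 1.77 CPM (SD, n = 4) was the largest among the 10 genes, with a log2 fold change of 0.23 (standard error 0.06, edgeR adjusted p = 0.00515, exact two-sided permutation p = 0.0286). With 4 libraries against 4, 0.0286 is the smallest p that this permutation test can give.

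Axotactin, encoded by axo, is a secreted protein of the neurexin superfamily that glia make and that associates with axons. The axo values were 42.0, 45.1, 45.6 and 38.0 CPM in uninduced and 42.9, 49.5, 54.7 and 49.9 CPM in induced replicates 1 to 4. As for alrm, induced replicate 1 was the only induced library within the uninduced range. The log2 fold change was 0.21 (standard error 0.08, edgeR adjusted p = 0.0442, exact two-sided permutation p = 0.0857), and the call was lost in 7 of 15 alternatives, most clearly without induced replicate 3 (0.15, adjusted p = 0.145). The exons of axo share 358 bp with those of an antisense RNA.

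Both nrv2 and Nrx-IV belong to the septate junction. The gene nrv2 encodes a β subunit of the sodium pump, which also drives ion transport in glia, and per kb of exon it was the most abundant of the 10 genes. It had 236, 240.1, 250.1 and 241 CPM in uninduced and 258, 272, 284 and 265 CPM in induced replicates 1 to 4. All induced libraries were above all uninduced libraries. The mean rose from 242 ± 5.79 to 270 ± 11.2 CPM (SD, n = 4), a log2 fold change of 0.16 (standard error 0.04, edgeR adjusted p = 0.0131, exact two-sided permutation p = 0.0286).

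Neurexin IV, the transmembrane core protein of the junction, is encoded by Nrx-IV. Its values of 74.4, 71.2, 70.7 and 64.9 CPM in uninduced replicates 1 to 4 overlapped with 73.4, 72.3, 75.8 and 75.5 CPM in induced replicates 1 to 4. Uninduced replicate 4 was again the lowest library. The log2 fold change was 0.08 (95% confidence interval -0.02 to 0.18, edgeR adjusted p = 0.222).

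The gene drpr encodes Draper, the receptor with which ensheathing glia recognize and engulf degenerating axons, and which phagocytic hemocytes also use. Its level was 127, 128, 127 and 111 CPM in uninduced and 111, 111, 112 and 114 CPM in induced replicates 1 to 4. In 3 uninduced libraries drpr was above every induced library, while uninduced replicate 4 lay within the induced range. The log2 fold change was -0.14 (standard error 0.05, edgeR adjusted p = 0.0450, exact two-sided permutation p = 0.114). This call was weak. It held in 3 of 15 alternatives, the adjusted p was 0.00153 without uninduced replicate 4 and up to 0.138 without another library, and the value turned to 0.04 (adjusted p = 0.601) when libraries were scaled to their totals only. The exons of drpr share 115 bp with those of Oseg4 on the same strand, a gene with 17 to 28 counts per library beside at least 1428 on drpr.

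In the subperineurial glia, moody encodes a G protein-coupled receptor that is needed to keep the septate junctions of the barrier tight. It had 75.0, 66.4, 72.6 and 61.3 CPM in uninduced and 46.2, 52.6, 53.9 and 51.5 CPM in induced replicates 1 to 4. The highest induced library was below the lowest uninduced library. The mean fell from 68.8 ± 6.21 to 51.1 ± 3.39 CPM (SD, n = 4), that is to 0.742 times the uninduced mean, with a log2 fold change of -0.43 (standard error 0.07, edgeR adjusted p = 1.8e-04, exact two-sided permutation p = 0.0286).

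Mdr65 encodes an ATP-binding cassette transporter, related to P-glycoprotein of mammals, with which the same cells export xenobiotics. Its level was 81.0, 73.1, 80.2 and 72.7 CPM in uninduced and 51.6, 60.3, 60.4 and 55.6 CPM in induced replicates 1 to 4, without overlap between the groups. The mean fell from 76.8 ± 4.45 to 57.0 ± 4.25 CPM (SD, n = 4), with a log2 fold change of -0.43 (standard error 0.06, edgeR adjusted p = 6.8e-05, exact two-sided permutation p = 0.0286). The log2 fold changes of moody and Mdr65 were thus the same to 2 decimals.

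Indy encodes a plasma membrane transporter of citrate and other dicarboxylates, known from fat body, gut and oenocytes as well as from barrier tissue. It had 150.0, 125, 140.3 and 149 CPM in uninduced and 91.7, 104, 101 and 96.6 CPM in induced replicates 1 to 4. The groups were separate, and the fall was the largest among the 10 genes, from 141 ± 11.5 to 98.3 ± 5.31 CPM (SD, n = 4), a log2 fold change of -0.52 (standard error 0.06, edgeR adjusted p = 1.4e-05, exact two-sided permutation p = 0.0286). Markers of the fat body, which also contains Indy RNA, moved in the same direction. Of 9 tested, 7 were lower and 0 higher (edgeR, also 0 higher at an unadjusted p under 0.05 and 0 by DESeq2), beside 18.8% lower and 17.7% higher of all genes tested. The summed level of the markers was 141777 to 153216 CPM in uninduced and 90911 to 115946 CPM in induced libraries. Among them, apolpp, which encodes the apolipoprotein of the main lipid carrier, fell by 0.49 on the log2 scale (edgeR adjusted p = 9.7e-05). The storage protein gene Lsp2 (-4.47), fit (-1.23), which is expressed in head fat body, and the yolk protein gene Yp3 (-0.69) were lower as well. The part of the fat body in the fall of Indy was not tested.

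**Figure D2:**
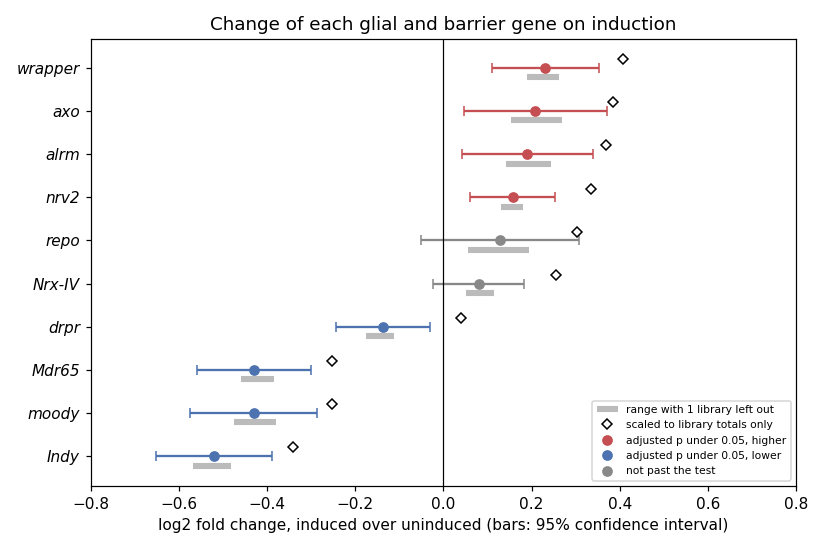
Log2 fold change of each of the 10 genes, induced over uninduced, with its 95% confidence interval. Grey bars give the range when each library was left out in turn, and open diamonds give the value when libraries were scaled to their totals only. Intervals of moody, Mdr65 and Indy lie far below 0, those of repo and Nrx-IV cross 0, and drpr is the only gene whose diamond is on the other side of 0 from its point.

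The choice of scaling mattered for the small changes. TMM factors were 0.913 to 0.954 in uninduced and 1.04 to 1.08 in induced libraries, and scaling to library totals only moved the median log2 fold change of all genes tested to 0.18. With that scaling 6 of the 10 genes were called higher, repo (0.30) and Nrx-IV (0.26) among them, and 3 lower. Of all 9905 genes tested, 4488 were higher and 874 lower in that setting. Relative to the median of 0.18, moody at -0.25, Mdr65 at -0.25, Indy at -0.34 and drpr at 0.04 were still on the lower side, and the other 6 genes on the higher side. For wrapper, nrv2, moody, Mdr65 and Indy the call and its direction held in all 15 alternatives, including every library left out in turn.

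Ratios of counts within a library do not depend on scaling. The counts of the 3 genes that fell most, chosen for this after their values were seen, were divided by the counts of each of the other 7 genes. All 21 ratios were lower in every induced library than in every uninduced library, and their means fell by between 18.4% (moody over drpr) and 40.9% (Indy over wrapper). For moody over repo, the ratio was 2.56, 1.97, 2.26 and 2.46 in uninduced and 1.49, 1.60, 1.52 and 1.62 in induced replicates 1 to 4. For Mdr65 over nrv2, it was 0.343, 0.305, 0.321 and 0.301 against 0.200, 0.222, 0.212 and 0.210. In these libraries moody and Mdr65 were lower relative to the pan-glial marker repo and to the sodium pump subunit gene nrv2. Because the numerators were chosen for their falls and most denominators had positive log2 fold changes, lower ratios were largely fixed by that choice. The 21 ratios also share genes, so that they do not count as separate results, and no test is given.

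**Figure D3:**
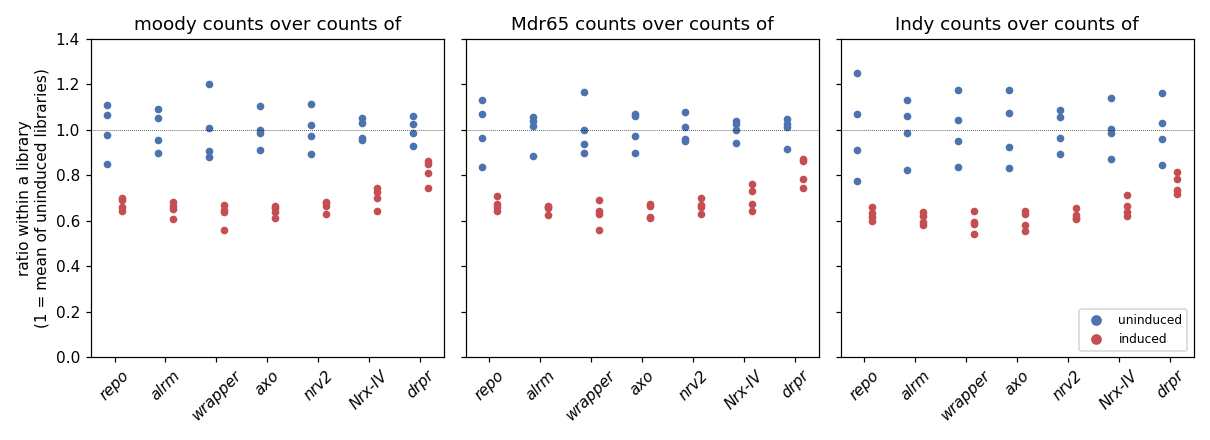
Counts of moody, Mdr65 and Indy divided by the counts of each of the other 7 genes in the same library, shown relative to the mean of the 4 uninduced libraries. Each point is a library. All 21 ratios are lower in the induced libraries, and the distance is smallest for drpr as the denominator.

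Levels can be compared between genes only per length, here as CPM per kb of all annotated exons. In uninduced heads nrv2 was highest at 67.8 ± 1.62 CPM per kb (SD, n = 4), followed by Indy (45.9 ± 3.75), drpr (25.9 ± 1.70), alrm (25.5 ± 1.49), wrapper (22.7 ± 1.58), Mdr65 (18.6 ± 1.08), moody (17.5 ± 1.58), Nrx-IV (13.7 ± 0.763), repo (10.0 ± 1.30) and axo (4.69 ± 0.387). Neighbours in this order whose libraries overlapped were drpr with alrm, alrm with wrapper, and Mdr65 with moody. In induced heads the level of Indy per kb (32.0 ± 1.73) came within the range of alrm (29.1 ± 2.80), drpr moved from rank 3 to rank 5, and the mean of Nrx-IV (14.5 ± 0.326) came to stand above those of Mdr65 (13.8 ± 1.03) and moody (12.96 ± 0.861). In that order the libraries of alrm overlapped with those of wrapper (26.6 ± 0.893). Those of Nrx-IV overlapped with Mdr65, those of Mdr65 with moody, and those of moody with repo (10.9 ± 0.638). The transcripts in use are unknown, and dividing by the longest transcript instead raised nrv2 to 90.7 CPM per kb without a change of its rank.

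Libraries of a group also differed in the levels of the 10 genes. Uninduced replicate 4 had the lowest uninduced level of 7 of the 10 genes, and induced replicate 1 the lowest induced level of 7. Induced replicate 3 had the highest induced level of 7. This order was not particular to the 10 genes. Uninduced replicate 4 also had the lowest uninduced sum of the septate junction, lamella, cortex glia, neuronal, hemocyte and epithelial lists described below. It did not for the barrier transport, astrocyte, engulfment and fat body lists. The summed level of the 10 genes was 849 to 909 CPM in uninduced and 804 to 885 CPM in induced libraries, so that rises and falls left the groups overlapping.

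In coordinates of dm6, with positions from the Ensembl annotation of BDGP6, repo lies on chromosome 3R from 18236192 to 18239602 and alrm on 3R from 25381065 to 25382781. Most of the others lie on 3L: axo from 4629604 to 4687317, Mdr65 from 6240500 to 6245746, Nrx-IV from 12146519 to 12156990, drpr from 1715595 to 1731107 and Indy from 18828632 to 18846267. The X chromosome carries moody, from 2044292 to 2050120, 2L carries nrv2, from 6789770 to 6798862, and 2R carries wrapper, from 22379637 to 22382675. Neither the genes that fell nor those that rose lay on a single chromosome arm, and 3L held genes of both kinds.

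The closest relatives and partners of the 10 genes were looked up whatever their values. Of 11 with enough counts, 3 were called lower, 1 higher and 7 did not pass the test, beside 18.8% lower and 17.7% higher of all genes tested. The P-glycoprotein relatives of Mdr65 behaved unevenly. Mdr50 had 86, 115, 109 and 120 counts in uninduced and 67, 32, 53 and 33 counts in induced replicates 1 to 4, and fell by 1.44 on the log2 scale (standard error 0.20, edgeR adjusted p = 6.7e-05). The log2 fold change of Mdr49 was -0.16 (standard error 0.09, edgeR adjusted p = 0.180). It passed the test only without induced replicate 3 (-0.25, adjusted p = 0.0186) and was at 0.02 with scaling to library totals only.

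No other sodium pump gene looked up was called higher. Its neighbour nrv1, another β subunit, fell from 232 ± 7.38 to 204 ± 5.05 CPM (SD, n = 4; log2 fold change -0.19, edgeR adjusted p = 0.00347), a fall of which -0.01 was left when libraries were scaled to their totals only. The mainly neuronal β subunit nrv3 (-0.09, edgeR adjusted p = 0.174) and the catalytic α subunit Atpalpha (-0.06, 0.386) did not pass, and with scaling to library totals only they were at 0.09 and 0.11, again without passing. The difference between nrv2 and nrv1 was not tested as such, but each moved without overlap between the groups.

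The junction partners of Nrx-IV, Contactin and Coracle, were measured with little spread: Cont had a log2 fold change of -0.02 (standard error 0.05) and cora of -0.02 (0.06), and neither passed. With scaling to library totals only both were at 0.16, where Cont passed (edgeR adjusted p = 0.0485) and cora did not. Nrx-1, the neurexin of synapses, rose from 182 ± 10.5 to 211 ± 1.97 CPM (SD, n = 4; log2 fold change 0.22, edgeR adjusted p = 0.00248). The regulator of G protein signalling loco, a partner of moody at the barrier, had a log2 fold change of -0.03 (standard error 0.07), or 0.15 with scaling to library totals only. Tre1, a receptor related to moody, was at 6.36 ± 0.419 CPM in uninduced and 5.59 ± 0.779 CPM in induced heads (SD, n = 4) and did not pass. Indy-2, a relative of Indy whose annotated exons are shared with CG33934, had 0 counts in all 8 libraries. How reads on shared exons were counted is not given, so that 0 counts set no limit on its level.

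The adaptor ced-6, which carries the signal of Draper into the cell, fell from 324 ± 12.0 to 219 ± 10.5 CPM (SD, n = 4; log2 fold change -0.56, standard error 0.05, edgeR adjusted p = 7.1e-07), much further than drpr. Its counts were 4443, 4017, 4212 and 4170 in uninduced and 3038, 3249, 3651 and 3377 in induced replicates 1 to 4, and the call held in all 15 alternatives.

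Other genes of glia and the barrier were read from lists written with general knowledge. Of 26 septate junction genes besides nrv2 and Nrx-IV, 5 were lower and 0 higher (edgeR, also 0 higher at an unadjusted p under 0.05 and 0 by DESeq2). The shares over all genes tested were 18.8% lower and 17.7% higher. The median log2 fold change of the list was -0.05, which turned to 0.13 with scaling to library totals only. In that setting 0 of the list were lower and 9 higher, beside 874 lower and 4488 higher of all 9905 genes tested. The changes were small. The furthest was bou (-0.31, edgeR adjusted p = 0.00472), which encodes a Ly6 protein of junction assembly, followed by the membrane protein gene M6 (-0.20, adjusted p = 0.0173), nrv1, and Gli (-0.18, adjusted p = 0.0495), which encodes Gliotactin, a protein of tricellular junctions. Gli is also a marker of subperineurial glia, and its call was lost in 12 of 15 alternatives.

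Genes of barrier signalling and transport changed in both directions. Of 26 tested, 9 were lower and 4 higher, beside 18.8% lower and 17.7% higher of all genes tested. The median log2 fold change of the list was -0.08, or 0.10 with scaling to library totals only. Besides Mdr50, the furthest were MRP, a multidrug resistance-associated transporter, which rose from 185 ± 5.30 to 263 ± 10.6 CPM (SD, n = 4; log2 fold change 0.51, edgeR adjusted p = 9.9e-07), Oatp33Ea, an organic anion transporter (0.39, adjusted p = 0.0143, 0.0536 by DESeq2), and Mrp4 (-0.34, adjusted p = 2.2e-04). The transporters with which the head exports foreign compounds therefore included genes that fell, such as Mdr65, Mdr50 and Mrp4, and a gene that rose, MRP. These transporters are also made outside the barrier, in other tissues of the head.

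Of 14 genes listed for astrocyte-like and other neuropil glia, 3 were lower, Eaat1 and the innexin genes ogre and Inx2, and 2 were higher. The shares over all genes tested were 18.8% lower and 17.7% higher. The list had a median of 0.03 (0.21 with scaling to library totals only). The glutamate transporter gene Eaat1 had the largest change: 450 ± 4.53 CPM in uninduced and 245 ± 8.74 CPM in induced heads (SD, n = 4; log2 fold change -0.88, standard error 0.04, edgeR adjusted p = 3.0e-09). Its counts were 5991, 5833, 5681 and 5874 against 3481, 3604, 4047 and 3756. The GABA transporter gene Gat, which marks the same class of glia, stayed within its spread, at 54.1 ± 4.74 and 55.5 ± 7.59 CPM (log2 fold change 0.03, edgeR adjusted p = 0.791). The log2 fold changes of alrm, Gat and Eaat1, all known from astrocyte-like glia, were thus 0.19, 0.03 and -0.88.

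The gap junction genes ogre (-0.35, edgeR adjusted p = 1.7e-05) and Inx2 (-0.19, adjusted p = 0.0141), whose innexins couple barrier glia to each other, both fell without overlap between the groups, whereas with scaling to library totals only ogre was at -0.17 and Inx2 at -0.02. AANAT1, which encodes an enzyme that acetylates monoamines, rose (0.19, edgeR adjusted p = 0.00529).

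With TMM, the rise of wrapper was not seen in 2 other markers of cortex glia, zyd and Cyp4g15. Both zyd (-0.02, edgeR adjusted p = 0.837) and Cyp4g15 (-0.07, adjusted p = 0.350) did not pass the test. With scaling to library totals only they were at 0.16 and 0.11, where zyd passed (edgeR adjusted p = 0.0490) and Cyp4g15 did not. Of 7 cortex glia and glial fate genes tested, 1 was higher and 0 lower (also 0 lower at an unadjusted p under 0.05 and 0 by DESeq2). The shares over all genes tested were 17.7% higher and 18.8% lower. The median of the list was -0.05, or 0.13 with scaling to library totals only. The higher gene was bnb, expressed in embryonic glia and also in other cells, which rose from 488 ± 31.0 to 750 ± 19.5 CPM (SD, n = 4; log2 fold change 0.62, standard error 0.05, edgeR adjusted p = 6.8e-07). The fate regulators gcm and gcm2, which switch on repo in the embryo, had 0 to 7 counts per library and were not tested.

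Of 18 engulfment genes tested besides drpr, 4 were lower and 3 higher, beside 18.8% lower and 17.7% higher of all genes tested. The median of the list was -0.04, or 0.13 with scaling to library totals only. Beside ced-6, Stat92E, the transcription factor that raises drpr after injury, fell from 445 ± 24.9 to 300 ± 15.1 CPM (SD, n = 4; log2 fold change -0.57, edgeR adjusted p = 1.7e-06). Src42A, a kinase that phosphorylates Draper, rose from 105 ± 2.83 to 138 ± 4.20 CPM (log2 fold change 0.39, edgeR adjusted p = 6.5e-06). For the small GTPase gene Rac2 the log2 fold change was -0.21 (edgeR adjusted p = 0.0182, with the call lost in 4 of 15 alternatives). Stat92E, Src42A and Rac2 are named because their changes were among the largest in the list, so that a smaller change of drpr follows from that choice. In the same list 11 genes did not pass, among them Crk (-0.08), Shark (-0.05), mbc (-0.04) and Rac1 (-0.01). Differences between drpr and these genes were not tested, and the partners also act outside glia.

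Markers of hemocytes, which also use drpr, were lower as well. Of 8 hemocyte markers tested, 6 were lower and 0 higher (edgeR, also 0 higher at an unadjusted p under 0.05), beside 18.8% lower and 17.7% higher of all genes tested. The median of the markers was -0.61. DESeq2 gave 4 lower and 0 higher, beside 1652 lower and 1527 higher of the 11003 genes tested in that setting. The furthest were PPO1, a prophenoloxidase of crystal cells (-1.04), and the scavenger receptor genes NimC1 (-0.93) and Sr-CI (-0.84), and Hml, which encodes hemolectin, fell by 0.65 on the log2 scale (edgeR adjusted p = 0.0219). The call of Hml was lost in 5 of 15 alternatives, among them DESeq2 (adjusted p = 0.0906), and its value was -1.02 without induced replicate 3. The summed level of the list was 343, 335, 287 and 273 CPM in uninduced and 181, 197, 307 and 175 CPM in induced replicates 1 to 4. Induced replicate 3 thus lay within the uninduced range. Without it the log2 fold change of drpr was -0.14, the same as with all libraries, and the part of hemocytes in the value of drpr was not tested.

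The neural lamella and basement membrane genes followed a like order of libraries. Their sum was 991, 974, 926 and 851 CPM in uninduced and 746, 800, 954 and 747 CPM in induced replicates 1 to 4, again with induced replicate 3 among the uninduced libraries. Beside 18.8% lower and 17.7% higher of all genes tested, 4 of the 11 tested here were lower and 0 higher (edgeR, also 0 higher at an unadjusted p under 0.05 and 0 by DESeq2). They were LanA (-0.51, adjusted p = 0.00898) and LanB2 (-0.29, 0.0361), which encode laminin chains, vkg (-0.37, 0.0431), a collagen IV chain, and SPARC (-0.22, 0.00983), which binds it. In none of the 11 genes were the groups separate. The number called lower was 7 without induced replicate 3, 7 without uninduced replicate 4 and 2 without some of the other libraries. Of all 9941 to 9995 genes tested in such fits, 1598 to 1764 were lower. Hemocytes and fat body also make these proteins, and the part of hemocytes in the lamella genes was not tested.

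Markers of neurons, the cells in which the repeat was driven, had a median of 0.02 over 14 genes, or 0.20 with scaling to library totals only. In that setting 11 were higher and 0 lower, beside 4488 higher and 874 lower of all 9905 genes tested. With TMM, 3 of the markers were higher and 3 lower, beside 17.7% higher and 18.8% lower of all genes tested. Among those called, elav, the pan-neuronal marker, rose from 105 ± 1.54 to 120 ± 2.34 CPM (SD, n = 4; log2 fold change 0.19, edgeR adjusted p = 0.00166). So did ChAT (0.29), which encodes the enzyme of acetylcholine synthesis, and the calcium channel gene cac (0.20). With TMM, 8 of the markers did not pass, among them nSyb (0.02), brp (0.02) and Syt1 (0.10), so that the rise of elav was not general. The genes of GABA synthesis, Gad1, and of vesicular glutamate transport, VGlut, fell by 0.20 each, and with scaling to library totals only neither passed. VAChT, the vesicular acetylcholine transporter gene, named here after its value was seen, was also lower (-0.14, edgeR adjusted p = 0.0243). It lies within the locus of ChAT and shares 606 bp of exons with it, so that the counts of both are uncertain. Tracheal and epithelial markers, whose cells also have septate junctions, had a median of 0.04 over 10 genes (0.22 with scaling to library totals only), with 1 higher, dyl, on 12 to 53 counts per library, and 1 lower, shg, which encodes E-cadherin (-0.16, edgeR adjusted p = 0.0114). The summed level of the epithelial markers was 370.4 to 407 CPM in uninduced and 382 to 410.5 CPM in induced libraries.

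**Figure D4:**
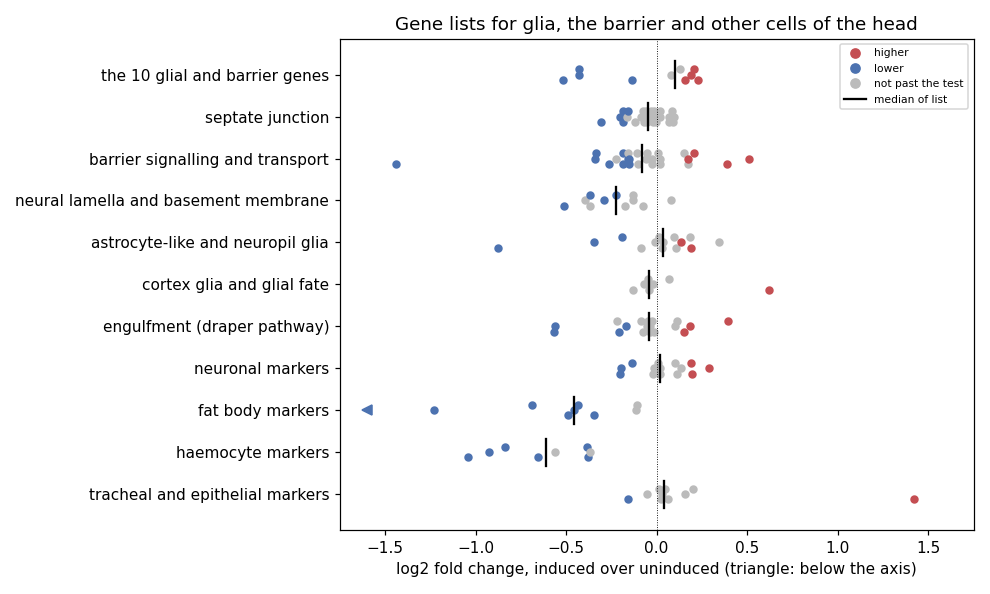
Log2 fold changes, induced over uninduced and normalized by TMM, of the 10 glial and barrier genes and of the genes tested in 10 lists. Each point is a gene, colored by its call, black lines are medians, and the triangle is Lsp2, at -4.47. Fat body and hemocyte markers lie to the left of 0, while the glial and junction lists are centered near 0 with single genes far out, among them Eaat1, Mdr50 and bnb.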

How the data were processed

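RNA from fly heads was sequenced in 8 libraries. The authors aligned the reads to Dm6 and deposited raw counts per gene. The aligner, counting tool, annotation and strand setting were not given in the sources used here. Columns of size-factor-normalized values and of the authors' own DESeq2 comparison (fold changes, p-values and dispersions) were not used.

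The counts entered edgeR 4.0.16 under R 4.3.3 (TMM, filterByExpr, quasi-likelihood test of induced against uninduced), with Benjamini-Hochberg adjustment over the 9905 genes tested. Standard errors were derived from the log2 fold change and its F statistic and are approximate. Single genes were also compared by an exact two-sided permutation test of log2(CPM + 0.1). Intervals cover the spread between these libraries only.

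The members and the 10 lists were chosen with earlier results of these data known. Of the 150 list entries, 17 had an older name in the table and were matched through RefSeq synonyms. From each list the text names the 4 genes with the largest absolute log2 fold change among those called and not below a mean log2 CPM of 0. Besides these it names the partners and most of the cell type markers. A few other genes are named outside this rule, among them VAChT, Crk, Shark, mbc and Rac1. The alternatives were DESeq2 1.42.0, RLE and upper quartile normalization, library totals only, no filter, a minimum of 10 counts per library, a replicate block, each library left out in turn, a pseudocount of 1, and the longest transcript as length.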

Additional observations from a re-analysis of the deposited data

Results flagged for a closer look

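In the uninduced group drpr had 1 library far from the others: replicate 4 was at 111 CPM, and the other 3 libraries were at 127 to 128 CPM. It was the only such case in the 20 groups of 4 values examined for the 10 genes, and chance gives about 1 in 20. The same library was also the lowest uninduced library for 6 of the other genes.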

How the results depend on the processing

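Of the 10 genes, moody, Mdr65, Indy, wrapper and nrv2 kept their calls under all 15 alternatives, and drpr turned to 0.0393 with library totals only. Among the other named genes shg turned to 0.0164, Cont and zyd turned to 0.16 and passed the test, and nrv3, Atpalpha, cora, loco, Mdr49 and Cyp4g15 turned upward without passing in either setting. The number of the 10 genes called higher was 4, and 2 with upper quartile normalization, 2 with DESeq2 and 2 to 4 with a library left out. Library totals only gave 4488 higher and 874 lower genes of all tested. In that setting the higher and lower counts were 9 and 0 for septate junction, 7 and 3 for barrier transport, 1 and 1 for lamella, 9 and 2 for engulfment, 11 and 0 for neuronal and 6 and 0 for epithelial genes, and 7 astrocyte and 3 cortex glia genes were higher. DESeq2 gave 2 higher barrier, 1 higher astrocyte, 1 higher engulfment and 5 higher neuronal genes and 3 lower septate junction genes. Of all 11003 genes tested in that setting, 1527 were higher and 1652 lower. The higher astrocyte genes were 1 with upper quartile normalization, with no filter and with the replicate block. Of all genes tested, 1693 of 9905, 1800 of 14310 and 1671 of 9905 were higher in these settings. With a library left out, 1 to 2 astrocyte, 1 to 3 engulfment and 1 to 2 epithelial genes were higher, and 2 to 5 septate junction, 2 to 7 lamella and 2 to 5 engulfment genes were lower. Of all 9941 to 9995 genes tested in those fits, 1527 to 1763 were higher and 1598 to 1764 lower. Replicate numbers did not pair the samples: deviations of same-numbered libraries correlated by -0.07 to 0.02, and no library correlated best with its own number. With the replicate number as a block, 1671 genes were higher and 1788 lower, and drpr was no longer called (adjusted p = 0.072). The causes of these shifts were not tested. Precision is lowest for genes with few counts, such as Mdr50 and dyl.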
